A study of Homo sapiens with 18 samples.

Results

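Solute carrier genes encode the membrane proteins that move ions, nutrients, metals, vitamins and drugs across the cell surface and the membranes of organelles, and the members described here are the genes whose symbol carries a family number, the letter A and a member number. For each gene the brightest probe was used, and a gene counted as measured where a probe had a detection p-value under 0.05, that is, a signal above the array's negative controls, on at least 3 of the 18 arrays. That rule left 220 measured genes of 53 families, of 327 solute carrier genes with a probe and 13712 genes tested in all. The other 107 solute carrier genes had no probe that passed. It left out 16 like-named symbols that passed the filter, such as antisense transcripts, pseudogenes and SLC4A1AP. At the edge of the rule, 7 members were detected on exactly 3 arrays, with log2 intensities between 4.52 and 6.50, and 11 genes just outside it, SLC8A1, SLC29A1 and SLC39A5 among them, were detected on 2 arrays, with intensities between 4.57 and 6.44. The edge also bears on the treatment, because the probes used for 13 members would not have passed without the arrays of 1 of the 6 groups. Of these, SLC34A3 alone changed with calcitriol.

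RNA came from the human colorectal cancer lines HCT116, LS174T and SW480, each grown with 50 nM calcitriol, the vitamin D hormone, for 16 h, or with its ethanol vehicle for the same time, in medium whose serum had been charcoal-treated. The 6 groups were HCT116 with calcitriol and with ethanol, LS174T with calcitriol and with ethanol, and SW480 with calcitriol and with ethanol, each of 3 arrays. Each group is a single established line. The labels number the replicates and give no word on separate cultures. The p-values therefore measure only how far these samples spread, which may be a technical spread. RNA was taken from whole cultures, so fewer cells using a gene and less RNA per cell cannot be told apart.

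Solute carriers are grouped into numbered families by sequence, and the family number often goes with the cargo. SLC2 and SLC5 proteins carry sugars, SLC1, SLC6, SLC7 and SLC38 proteins carry amino acids and neurotransmitters, SLC30 and SLC39 proteins move zinc out of and into the cytosol, and the SLC25 family serves the inner membrane of mitochondria. In the gut, calcitriol is best known for raising the uptake of calcium and phosphate. SLC34 and SLC20 proteins are the sodium-dependent phosphate carriers, and calcium enters mainly through channels that are no solute carriers.

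The 18 arrays were of like quality, with 40.8% to 44.4% of the probes detected on each, correlations of 0.991 to 0.993 between replicates, and 162 to 185 of the members detected per array. All 18 arrays detected 130 members, or 59.1%, against 63.4% of all genes. All 10 listed epithelial marker genes were detected on all 6 arrays in LS174T, 7 in SW480 and 6 in HCT116. VIL1, CDX1 and LGALS4 were not detected on any array of HCT116, nor CDX1 and LGALS4 on any array of SW480. Of 5 fibroblast, 4 leukocyte and 4 endothelial markers on the array, COL3A1, CD3E, PECAM1 and CDH5 were not detected on any array. CD68 was detected on all 18, LUM on all 6 arrays of LS174T, and PDGFRB on all 6 of SW480 and 1 of LS174T. CD14 was detected on 4 arrays of HCT116, 5 of LS174T and 5 of SW480, and KDR on 3 of LS174T and 2 of SW480. VWF was detected on 1 array of HCT116 and 2 of SW480, and COL1A2 on 2 of HCT116. DCN was detected on 1 array of LS174T and 1 of SW480, and PTPRC on 1 of SW480. CYP24A1, the calcitriol-degrading enzyme used as a check of the treatment, was higher with calcitriol by 1.56 ± 0.10 in HCT116 and 1.31 ± 0.10 in SW480, and at least 176-fold in LS174T (limma adjusted p = 1.04e-06, 2.47e-06 and 9.11e-18 in that order). TRPV6, the other check of the treatment, was at least 30.11-fold higher with calcitriol in LS174T (limma adjusted p = 1.558e-16). It did not pass in HCT116 (adjusted p = 0.7497) or SW480 (adjusted p = 0.09435). VDR, the receptor for calcitriol, had a mean level in ethanol of 5.50 in HCT116, 8.29 in LS174T and 6.99 in SW480. In HCT116 a treatment group had no array that detected VDR, so its level there lies near the detection limit.

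Levels are normalized log2 intensities, in which a step of 1 is a doubling. A value after ± is the SD over 3 arrays beside a level, and the standard error of the fit beside a difference. Differences are calcitriol minus ethanol unless lines are named, and adjusted p-values are those of limma over all 13712 genes, with a threshold of 0.05. Where no array of a group detected a probe, the fold is given as a lower bound. Detection is that of the probe used, unless other probes are named. Most of the variation among the members lay between the lines. The median share of a member's variance was 87.5% for the line, 3.74% for the treatment within a line and 6.52% for replicates, against 84.4%, 3.91% and 9.76% over all genes.

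With calcitriol, 28 of the 220 members passed the threshold in at least 1 line, or 12.7%, against 8.26% of all genes. In LS174T, 11 rose, SLC34A3 among them, and 4 fell, which was 6.82% of the members against 6.05% of all genes, of which 2.81% rose and 3.24% fell. SLC34A3 was measured only through LS174T with calcitriol, the group in which it was high. The counts of 28 and 11 that include it are therefore not read against the shares of all genes. Choline carriers of the SLC44 family, the phosphate carriers SLC34A3 and SLC20A1 and the monocarboxylate family member SLC16A5 were among the genes that rose, and the cystine transporter subunit SLC3A1 fell the most. In SW480, 3 rose and 11 fell, which was 6.36% against 2.46% of all genes, of which 0.788% rose and 1.68% fell. In HCT116 no member passed by limma, against 0.0729% of all genes, of which 0.0511% rose and 0.0219% fell, while 21 members, or 9.55%, had an unadjusted p under 0.05, against 10.8% of all genes. The count in HCT116 was also 0 under every alternative run. SLC16A5 was the only member past the threshold in more than 1 line, rising in LS174T and in SW480.

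**Figure D1:**
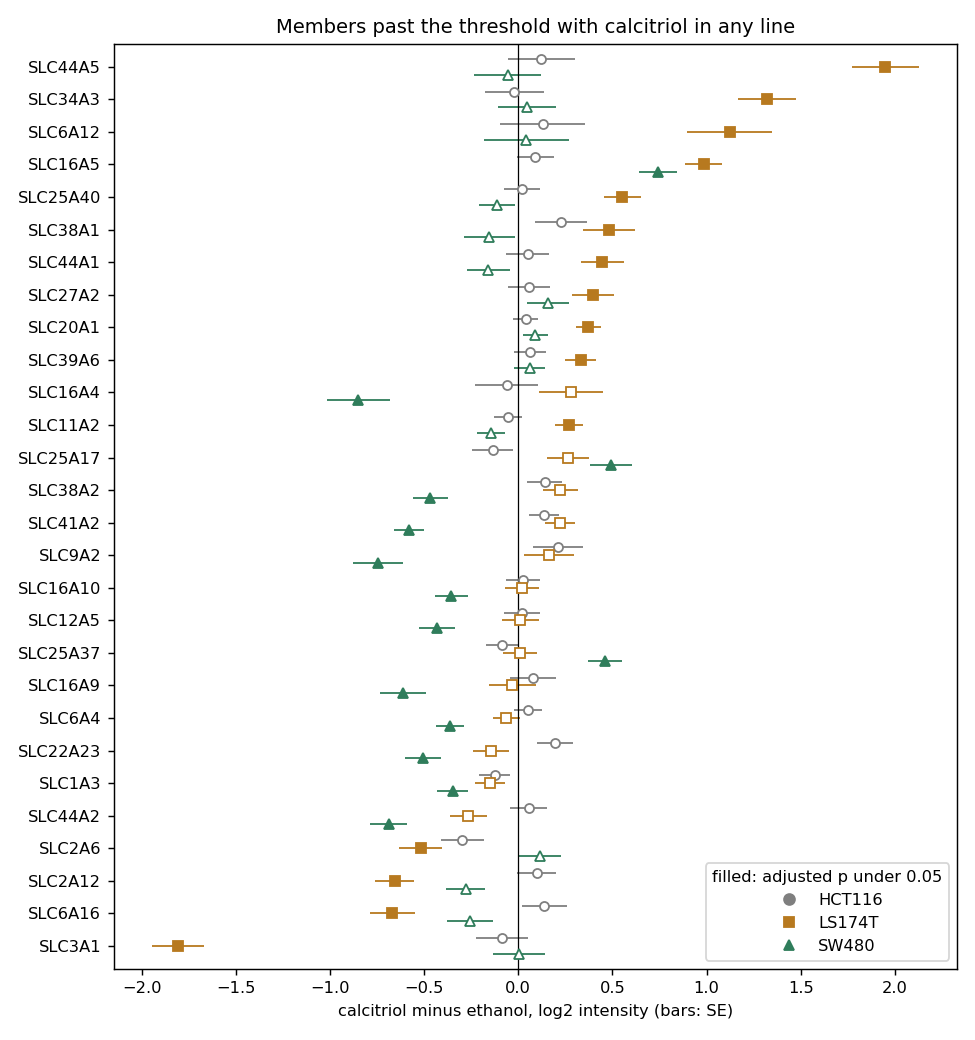
Difference between calcitriol and ethanol (log2 intensity, x axis) in each of the 3 lines for the 28 members past the threshold in any line; points are estimates, bars are standard errors, and filled points have an adjusted p under 0.05. SLC44A5 in LS174T lies farthest to the right at 1.95 and SLC3A1 in LS174T farthest to the left at a fitted -1.81, where its calcitriol arrays are below detection, and no HCT116 point is filled.

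The largest rise was that of SLC44A5, a member of the choline transporter-like family. In LS174T it stood at 7.74, 7.97 and 7.55 with calcitriol, against 5.56, 5.70 and 6.16 with ethanol. The calcitriol arrays stood clear of the ethanol arrays, and the difference was 1.95 ± 0.18, or 3.86-fold (adjusted p = 2.54e-06). In HCT116 it stood at 5.52, 5.26 and 5.58 with calcitriol, against 5.74, 5.20 and 5.05 with ethanol, so the groups overlapped. Its probe was detected there on 2 of 3 calcitriol arrays and 1 of 3 ethanol arrays, and it was not detected on any SW480 array. Other members of the family passed in opposite directions in different lines. SLC44A1, the widely expressed choline transporter, stood at 12.66, 12.52 and 12.53 in LS174T with calcitriol, against 12.12, 12.23 and 12.02 with ethanol. It rose by 0.45 ± 0.11 (adjusted p = 0.0271), and a second probe for it differed by 0.61. The call was lost in 5 of 18 fits that each left out an array, namely LS174T ethanol 1 and 3 and LS174T calcitriol 1, 2 and 3, where the highest adjusted p was 0.109. SLC44A2, a choline transporter of the plasma membrane and mitochondria, stood at 9.88, 9.82 and 9.53 in SW480 with calcitriol, against 10.37, 10.53 and 10.40 with ethanol. It fell by 0.69 ± 0.10 there (adjusted p = 0.0017), and in LS174T the difference was -0.27 ± 0.10 (adjusted p = 0.145). Neither SLC44A3 nor SLC44A4, a thiamine pyrophosphate carrier of the colon, passed in any line.

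The phosphate carriers numbered 5 measured genes, of which 2 rose in LS174T, where 2.81% of all genes rose. The 2 include SLC34A3, measured only through the group in which it was high, so they are not read against that share. SLC34A3, which encodes a sodium-phosphate cotransporter best known from the kidney tubule, stood at 6.43, 6.50 and 6.0 in LS174T with calcitriol, against 4.79, 5.42 and 4.76 with ethanol. It was detected on all 3 calcitriol arrays of LS174T and on no other array of the series. It was at least 1.81-fold higher with calcitriol (adjusted p = 4.16e-05, means 6.31 and 4.99), and it had passed the detection filter only through the group in which it was high. SLC20A1, a ubiquitous sodium-phosphate carrier, stood at 11.30, 11.22 and 11.19 in LS174T with calcitriol, against 10.87, 10.93 and 10.81 with ethanol. Its arrays did not overlap, and it rose by 0.37 ± 0.07, or 1.29-fold (adjusted p = 0.00227), and with only the 6 arrays of LS174T in the fit the adjusted p was 0.062. In the other lines SLC20A1 differed by 0.04 ± 0.07 in HCT116 and 0.09 ± 0.07 in SW480. Its close relative SLC20A2 differed by -0.18 in LS174T (adjusted p = 0.533). SLC34A2, the sodium-phosphate cotransporter of the intestinal brush border, was detected on 3 arrays in all and on none of LS174T. SLC34A1, a cotransporter of the kidney named after its values were seen, differed by -0.31 ± 0.32 in LS174T (adjusted p = 0.689).

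The stretches of 250 bases upstream of the annotated start of SLC44A5 and SLC34A3 are shown because these members had the largest fitted rises in LS174T. SLC34A3 was below detection there with ethanol, so the size of its rise is known only as a lower bound. The stretches are no evidence on the rises. They were taken from the promoter table of RefSeq on GRCh38.p14, in lower case and read along the strand of each gene, at chr1:75611115-75611364 on the minus strand and chr9:137230507-137230756 on the plus strand.
SLC44A5: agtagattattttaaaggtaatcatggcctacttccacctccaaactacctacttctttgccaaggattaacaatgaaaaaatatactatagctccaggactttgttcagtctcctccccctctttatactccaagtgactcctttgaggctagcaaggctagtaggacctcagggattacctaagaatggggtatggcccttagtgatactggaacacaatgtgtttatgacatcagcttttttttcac
SLC34A3: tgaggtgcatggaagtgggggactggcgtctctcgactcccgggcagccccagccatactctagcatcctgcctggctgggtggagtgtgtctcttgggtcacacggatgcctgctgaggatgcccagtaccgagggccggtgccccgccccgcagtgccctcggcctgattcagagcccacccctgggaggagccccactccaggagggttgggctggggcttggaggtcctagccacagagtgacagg
The share of G and C was 40.8% in the SLC44A5 stretch and 66.8% in that of SLC34A3. Neither held, on either strand, the vitamin D response element of the DR3 type, at which the vitamin D receptor binds with its partner, or TGATGNAA, the amino acid response element bound by ATF4. In windows of the same table that also take in 50 bases after the start, the DR3 element was found on either strand in 0 of 186 measured solute carrier genes with an entry, against 21 of 27305 promoters, or 0.0769%. TGATGNAA was found in 10 of the 186, or 5.38%, against 3.67% of all promoters. A missing match says only that these letters are not in this window.

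SLC16A5, a member of the monocarboxylate transporter family, was higher in HCT116 than in the other lines with ethanol. In LS174T it stood at 10.06, 9.83 and 9.66 with calcitriol, against 8.76, 8.98 and 8.85 with ethanol. In SW480 it stood at 9.86, 9.91 and 9.76 with calcitriol, against 9.17, 9.0 and 9.13 with ethanol. In HCT116 it stood at 10.15, 10.23 and 10.16 with calcitriol, against 10.20, 9.98 and 10.08 with ethanol. The groups separated in LS174T and SW480 and overlapped in HCT116. The rise in LS174T was 0.98 ± 0.10 (1.98-fold, adjusted p = 8.08e-06), that in SW480 was 0.74 ± 0.10 (1.67-fold, adjusted p = 0.000853), and the difference in HCT116 was 0.09 ± 0.10 (adjusted p = 0.827). The LS174T response exceeded that of HCT116 by 0.89 ± 0.14 (adjusted p = 0.00176), and the SW480 response exceeded it by 0.65 ± 0.14 (adjusted p = 0.0273). A second, dimmer probe for SLC16A5 differed in the same direction, by 0.31 in LS174T and 0.26 in SW480, and with the mean of both probes the adjusted p in SW480 was 0.063. The F-test of whether its response differed among the lines then gave an adjusted p of 0.1804.

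Other members of the SLC16 family fell in SW480. SLC16A4 stood at 7.36, 6.91 and 6.59 in SW480 with calcitriol, against 7.95, 7.72 and 7.75 with ethanol, and it was not detected on any HCT116 array. It fell by 0.85 ± 0.17, the largest fall of a member in SW480 (adjusted p = 0.0146), with a second probe at -0.73. SLC16A9, linked to carnitine export, stood at 5.17, 5.18 and 5.63 in SW480 with calcitriol, against 5.94, 5.98 and 5.89 with ethanol, and was detected on 1 of the 3 calcitriol arrays. It fell by 0.61 ± 0.12 (adjusted p = 0.0161), and the call was lost without SW480 ethanol 2 or SW480 calcitriol 1 or 2. The SLC16A4 call was lost without SW480 ethanol 1 or SW480 calcitriol 3 (adjusted p of up to 0.0583). SLC16A10, a carrier of aromatic amino acids, fell by 0.35 ± 0.09 (adjusted p = 0.0493). That call was lost in 17 of the 18 fits that each left out an array. Of the 10 measured members of the families SLC13 and SLC16, grouped here as carboxylate carriers by family number alone, 1 rose in LS174T, against 2.81% of all genes. In SW480, 1 rose and 3 fell, against 0.788% and 1.68% of all genes. The median difference of these 10 was 0.27 in LS174T and -0.14 in SW480, against medians over all genes of -0.0166 and -0.007.

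Among the 40 measured carriers of amino acids, peptides and neurotransmitters, 2 rose and 2 fell in LS174T, where 2.81% of all genes rose and 3.24% fell, and 3 fell in SW480, against 1.68% of all genes. SLC3A1 encodes the heavy subunit of the transporter for cystine and dibasic amino acids, which pairs with SLC7A9. In LS174T it stood at 5.05, 4.95 and 4.89 with calcitriol, where no array detected it, against 6.50, 7.16 and 6.66 with ethanol, where all 3 did. It was at least 2.44-fold lower with calcitriol (adjusted p = 3.43e-07, means 4.97 and 6.77). In SW480 the gene was far higher and did not pass, at 9.67, 9.79 and 9.82 with calcitriol, against 9.85, 9.82 and 9.60 with ethanol. Its difference was 0.01 ± 0.14 there. The test of the response in SW480 against that in LS174T gave an adjusted p of 4.54e-05, with no size given because LS174T with calcitriol was below detection. Its partner SLC7A9 was detected on all 6 arrays of HCT116, where SLC3A1 was not detected on any array, and on none of LS174T or SW480.

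SLC6A12, the betaine and GABA transporter, stood at 6.34, 6.46 and 6.05 in LS174T with calcitriol, against 5.37, 5.20 and 4.91 with ethanol, where it was not detected. The rise was at least 1.78-fold (adjusted p = 0.00578). SLC6A16, a family member with no settled cargo, stood at 4.97, 5.15 and 5.11 with calcitriol, where it was not detected, against 5.60, 5.83 and 5.80 with ethanol. The fall was at least 1.2-fold (adjusted p = 0.00258). The neutral amino acid carriers SLC38A1 and SLC38A2, both of which take up glutamine, were called in different lines. SLC38A1 rose in LS174T by 0.48 ± 0.14 (adjusted p = 0.0495), with 8.83, 8.73 and 8.71 with calcitriol against 8.14, 8.47 and 8.23 with ethanol. Its call was lost in 14 of the 18 fits that each left out an array. SLC38A2 stood at 9.90, 10.01 and 10.02 in SW480 with calcitriol, against 10.42, 10.64 and 10.26 with ethanol. It fell by 0.47 ± 0.09 (adjusted p = 0.0146), and the difference was 0.22 ± 0.09 in LS174T (adjusted p = 0.2). The adjusted p in SW480 reached at most 0.0754 when SW480 ethanol 2 or SW480 calcitriol 1 was left out.

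The glial-type glutamate transporter SLC1A3 stood at 9.07, 9.02 and 8.96 in SW480 with calcitriol, against 9.27, 9.41 and 9.43 with ethanol. The serotonin transporter SLC6A4, detected in SW480 alone, stood at 8.06, 8.13 and 8.22 with calcitriol, against 8.45, 8.59 and 8.46 with ethanol. Neither gene's arrays overlapped between treatments. SLC1A3 fell by 0.35 ± 0.08 (adjusted p = 0.0326) and SLC6A4 by 0.36 ± 0.07 (adjusted p = 0.0154). The SLC1A3 call was lost without SW480 ethanol 2 or 3 or any SW480 calcitriol array, with an adjusted p of up to 0.133, and the SLC6A4 call without SW480 ethanol 2 or SW480 calcitriol 1, with up to 0.0848. TGATGNAA was found in the windows of 1 of the 9 genes that rose in LS174T and have an entry, and of 1 of the 11 that fell in SW480. The 30-base stretches around both matches are shown with the match in capitals, at chr12:46266502-46266531 on the minus strand, where the match spans the start of SLC38A1 from base -4 to base 3, and at chr5:36596357-36596386 on the plus strand, where it lies 220 to 213 bases before the start of SLC1A3.
SLC38A1: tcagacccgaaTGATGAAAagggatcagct
SLC1A3: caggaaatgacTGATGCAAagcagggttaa
A match is a description of the sequence and was not tested for binding.

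**Figure D2:**
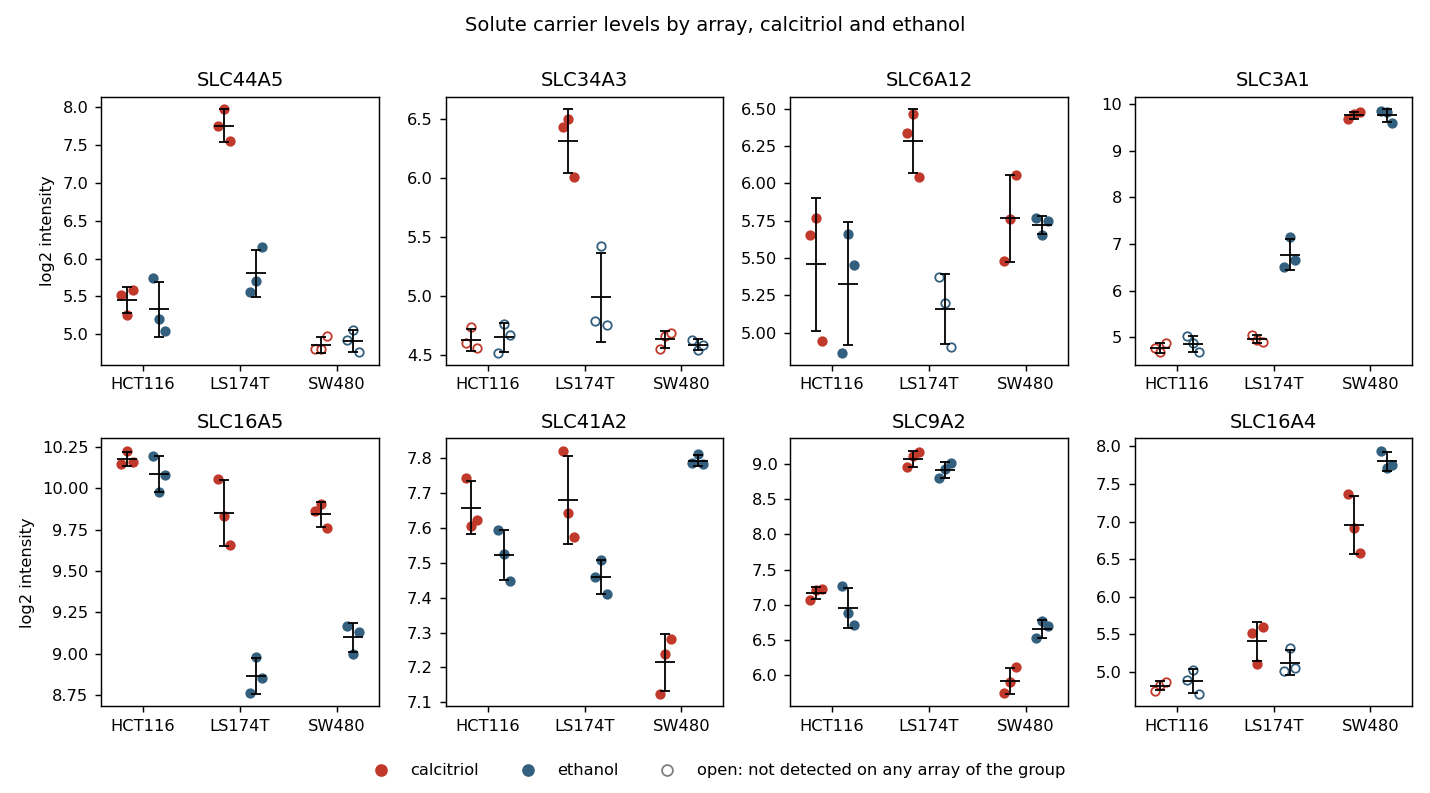
Log2 intensity (y axis) on every array for 8 members that changed with calcitriol, with calcitriol and ethanol side by side within each line; horizontal marks are means and bars are SD over 3 arrays, and open points mark groups in which no array detected the probe. SLC44A5 in LS174T stands at 7.55 to 7.97 with calcitriol and 5.56 to 6.16 with ethanol, and SLC3A1 in LS174T is open with calcitriol.

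The remaining members that rose in LS174T carry metals, fatty acids and mitochondrial cargo. SLC25A40, a mitochondrial carrier linked to glutathione import, stood at 9.87, 9.57 and 9.60 with calcitriol, against 9.09, 9.23 and 9.07 with ethanol. It rose by 0.55 ± 0.10 (adjusted p = 0.00174), with a second probe at 0.57. SLC27A2, which imports and activates very long chain fatty acids, stood at 11.07, 11.05 and 11.05 with calcitriol, against 10.66, 10.65 and 10.68 with ethanol. It rose by 0.39 ± 0.11 (adjusted p = 0.0482), and its standard error takes in the spread of all 6 groups. The call was lost in 14 of the 18 fits that each left out an array. SLC39A6, a zinc importer, rose by 0.33 ± 0.08 (adjusted p = 0.0268) and SLC11A2, the ferrous iron importer of the gut, by 0.27 ± 0.07 (adjusted p = 0.0416). The calcitriol and ethanol arrays of these 4 members did not overlap, but the SLC39A6 call was lost in 4 of the 18 fits, without LS174T ethanol 1 or 2 or LS174T calcitriol 1 or 3, and the SLC11A2 call in 12.

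The families grouped as sugar carriers were SLC2, SLC5, SLC37, SLC45 and SLC50, taken whole, so not every member need carry a sugar. Of their 25 measured members, 2 fell and none rose in LS174T, against 3.24% and 2.81% of all genes, and their median difference was -0.02. SLC2A12, an insulin-responsive glucose transporter, stood at 5.86, 5.82 and 5.55 with calcitriol, against 6.48, 6.38 and 6.33 with ethanol. SLC2A6, a hexose transporter of lysosomes, stood at 9.12, 9.16 and 9.23 with calcitriol, against 9.64, 9.62 and 9.81 with ethanol. Both genes had separate groups, and SLC2A12 was not detected on any SW480 array. SLC2A12 fell by 0.66 ± 0.10 (adjusted p = 0.000794) and SLC2A6 by 0.52 ± 0.11 (adjusted p = 0.0104). The SLC2A6 call was lost with median scaling of the arrays (adjusted p = 0.081). No member of this group passed in SW480, where the lowest was SLC2A10 at -0.43 ± 0.13 (adjusted p = 0.114).

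In SW480, the magnesium transporter SLC41A2 had the smallest adjusted p of the genes that fell. It stood at 7.12, 7.24 and 7.28 with calcitriol, against 7.79, 7.81 and 7.78 with ethanol. With calcitriol it stood at 7.82, 7.64 and 7.58 in LS174T and at 7.74, 7.61 and 7.62 in HCT116, above the ethanol arrays in both lines (7.46, 7.51 and 7.41 in LS174T, and 7.59, 7.52 and 7.45 in HCT116). The difference was -0.58 ± 0.08 in SW480 (adjusted p = 0.00104), 0.22 ± 0.08 in LS174T (adjusted p = 0.13) and 0.14 ± 0.08 in HCT116 (adjusted p = 0.587). SLC9A2, a sodium-proton exchanger of the apical gut membrane, stood at 5.74, 5.89 and 6.11 in SW480 with calcitriol, against 6.52, 6.76 and 6.69 with ethanol. It fell by 0.74 ± 0.13 there (adjusted p = 0.0071), and the response in SW480 was below that in LS174T by 0.91 ± 0.19 (difference of responses -0.91, adjusted p = 0.0115).

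SLC22A23, an organic ion family member without an established cargo, fell in SW480 by 0.50 ± 0.10 (adjusted p = 0.0121). Its second probe, also detected on all 18 arrays, differed by -0.13, and with the mean of both probes the call was lost. SLC12A5, a potassium-chloride cotransporter known from neurons, stood at 4.96, 4.85 and 5.14 in SW480 with calcitriol, against 5.32, 5.55 and 5.38 with ethanol (adjusted p = 0.0284). It was detected on 1 ethanol array and no calcitriol array of SW480, so no fold is given. The mitochondrial and peroxisomal carriers that rose were SLC25A37, the mitochondrial iron importer mitoferrin, and SLC25A17, which carries cofactors into peroxisomes. SLC25A37 stood at 9.40, 9.21 and 9.37 with calcitriol, against 8.82, 8.85 and 8.93 with ethanol, and rose by 0.46 ± 0.09 (adjusted p = 0.0121). SLC25A17 stood at 8.21, 8.25 and 8.23 with calcitriol, against 7.89, 7.53 and 7.79 with ethanol, and rose by 0.49 ± 0.11 (adjusted p = 0.0295). Both calls were lost with median scaling of the arrays, with an adjusted p of up to 0.125 for SLC25A37 and 0.205 for SLC25A17 over the alternatives. Leaving out SW480 calcitriol 1 ended the calls of SLC22A23, SLC12A5, SLC25A37 and SLC25A17, and leaving out SW480 ethanol 2 those of SLC12A5, SLC25A37 and SLC25A17.

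The SW480 count rested on single arrays and on the shared spread. It was 5 without SW480 calcitriol 1, 6 without SW480 ethanol 2 and 9 without SW480 calcitriol 2. With only the 6 SW480 arrays in the fit it was 1, SLC16A5. With median scaling, which moved the median of all genes to -0.09, 1 rose and 12 fell. The raw median intensity of the SW480 arrays was 146, 155 and 165 with calcitriol, against 181, 168 and 149 with ethanol. With that brightness as a covariate, chosen after seeing the data, 3 rose and 9 fell. The members called in SW480 and LS174T kept their direction under each alternative run.

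By cargo, the calls were spread over many families, with the family number standing for the cargo. Among all genes, 2.81% rose and 3.24% fell in LS174T, and 0.788% rose and 1.68% fell in SW480. Besides the groups above, the 37 members of the mitochondrial carrier family SLC25 had 1 call in LS174T and 2 in SW480. All were rises, and 1 of those in SW480 was the peroxisomal SLC25A17. The 25 metal carriers had 2 rises in LS174T and 1 fall in SW480. Of the 10 carriers of lipids and choline, 3 rose in LS174T and 1 fell in SW480. No member passed in any line among the 9 vitamin and cofactor carriers, the 9 carriers of nucleosides and nucleotide sugars and the 4 calcium exchangers. The median difference over all 220 members was -0.0247 in LS174T, against -0.0166 over all genes. It was -0.0302 in SW480, against -0.007, and 0.0093 in HCT116, against 0.0024. Calcitriol arrays lay wholly above or below ethanol arrays for 31 and 37 members in LS174T, against 10.2% and 13.3% of all genes, and for 22 and 43 in SW480, against 9.73% and 12.3%. The 31 include SLC34A3, measured only through the group in which it was high. In HCT116 they did so for 15 and 15 members, against 7.99% and 7.56% of all genes.

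**Figure D3:**
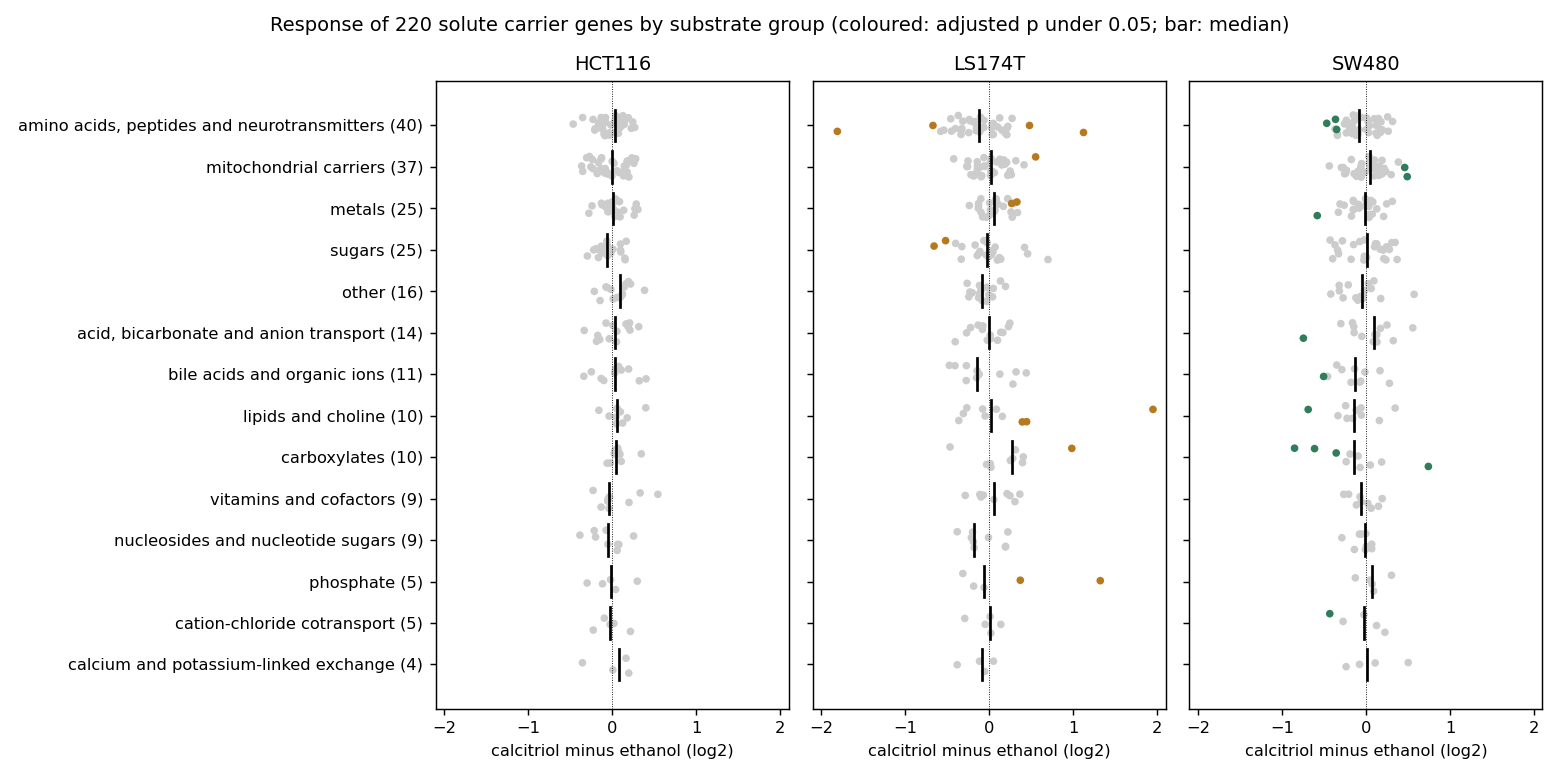
Difference between calcitriol and ethanol (log2 intensity, x axis) of each of the 220 members in the 3 lines, by cargo group (y axis, number of measured members in brackets); coloured points have an adjusted p under 0.05 and black bars are group medians. Coloured points lie on both sides of 0 in LS174T and SW480 and are absent in HCT116.

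In HCT116 the member nearest to the threshold was SLC46A3, a lysosomal transporter. It stood at 7.09, 7.44 and 7.38 with calcitriol, against 6.73, 6.79 and 6.76 with ethanol, a difference of 0.54 ± 0.11 (adjusted p = 0.0872). In LS174T and SW480 the difference had the opposite sign, at -0.28 ± 0.11 (adjusted p = 0.154) and -0.26 ± 0.11 (adjusted p = 0.223). Whether responses differed among the lines was tested directly with an F-test of limma, and 21 members passed, or 9.55%, against 5.55% of all genes. SLC46A3 was among them (adjusted p = 0.00468), as were SLC3A1 (adjusted p = 4.03e-05), SLC44A5 (adjusted p = 0.000229), SLC41A2 (adjusted p = 0.000659) and SLC34A3 (adjusted p = 0.0021), which was tested only because LS174T with calcitriol was above detection. Of the 21 calls, 9 held under every alternative run. Between pairs of lines, the response in LS174T minus that in HCT116 passed for 4 members above 0 and 5 below, against 2.98% of all genes (1.42% above and 1.55% below). The response in SW480 minus that in HCT116 passed for 4 above and 10 below, against 2.49% (1.08% and 1.41%), and that in SW480 minus that in LS174T for 3 above and 9 below, against 3.12% (1.24% and 1.88%). These pairs share lines and are not independent of each other.

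In ethanol, 185 members differed among the lines by the F-test, or 84.1%, against 79.7% of all genes. Between LS174T and HCT116, 81 members were higher in LS174T and 57 lower, or 62.7% against 60.4% of all genes, of which 31.1% were higher and 29.3% lower. Between SW480 and HCT116, 82 were higher in SW480 and 68 lower, or 68.2% against 64.4%, with 32.8% of all genes higher and 31.6% lower. With median scaling, which moved the median of all genes to 0.20 in that comparison, 96 were higher and 49 lower. Between SW480 and LS174T, 75 were higher in SW480 and 76 lower, or 68.6% against 63.8%, with 31.9% of all genes higher and 32% lower. Median scaling, which moved the median of all genes to 0.12 there, gave 84 and 69. Fitted differences past the threshold of at least 2-fold, counted also where a group was below detection, were found for 67, 74 and 74 members in these comparisons. The shares of all genes were 21.8%, 25.6% and 27%. With calcitriol the count of such fitted differences was 4 in LS174T, against 0.861% of all genes, and 0 in SW480 and HCT116, against 0.0802% and 0.0292%. Of the 4, SLC34A3 and SLC6A12 were not detected in LS174T with ethanol, and their lower bounds fell short of 2-fold. SLC34A3 was also measured only through the group in which it was high, so the 4 are not read against the share of all genes.

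Glucose carriers gave the widest gap. SLC2A3, the high-affinity glucose transporter of neurons, stood at 13.86, 13.79 and 13.83 in SW480 with ethanol, at 4.69, 4.70 and 4.60 in LS174T, where it was not detected, and at 7.81, 7.94 and 7.71 in HCT116. It was at least 332-fold higher in SW480 than in LS174T (adjusted p = 4.44e-19) and higher than in HCT116 by 6.01 ± 0.11 (adjusted p = 7e-17). SLC2A14, a near-identical copy of SLC2A3 whose probe may share its transcript, was detected in SW480 alone, at 10.74 ± 0.11, so its own level is uncertain. SLC2A10 stood at 8.83 ± 0.16 in SW480, and its probe was not detected in the other lines. A second probe was also detected on 1 ethanol array of LS174T. By the probe used it was at least 10.4-fold higher in SW480 than in LS174T (adjusted p = 1.56e-13). SLC2A1, the general glucose transporter, followed the same order, at 13.24 ± 0.09 in SW480, 9.59 ± 0.15 in LS174T and 11.62 ± 0.05 in HCT116. The sodium-glucose cotransporter SLC5A1 of the gut ran the other way. It stood at 9.67, 9.49 and 9.49 in LS174T with ethanol, against 5.41, 5.47 and 4.90 in HCT116, a difference of 4.29 ± 0.15 (adjusted p = 2.35e-13), and at 5.51, 5.47 and 5.46 in SW480.

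Of the 40 carriers of amino acids, peptides and neurotransmitters, 17 were highest in SW480 and past the threshold against both other lines, 6 in LS174T and 7 in HCT116, where the shares of all genes were 21.2%, 18.4% and 17.3%. SLC7A8, a light chain that carries neutral amino acids, stood at 12.36, 12.71 and 12.60 in SW480 with ethanol, 6.14, 6.77 and 6.34 in LS174T, and 7.43, 7.89 and 7.91 in HCT116. SW480 lay above both others on every array, by 6.14 ± 0.17 against LS174T (adjusted p = 1.17e-14) and 4.81 ± 0.17 against HCT116 (adjusted p = 4.29e-13). SLC3A1 was at least 19.9-fold higher in SW480 than in HCT116 (adjusted p = 1.78e-14). SLC1A3 stood at 9.37 ± 0.09 in SW480 and 8.25 ± 0.08 in HCT116 and was not detected in LS174T, so that it was at least 15.1-fold higher in SW480 than there (adjusted p = 4.34e-17). SLC1A5, a main glutamine importer, was at 12.27 ± 0.10 in SW480, 9.63 ± 0.08 in LS174T and 9.87 ± 0.06 in HCT116. The imino acid carrier SLC6A20 stood at 9.43, 9.29 and 9.09 in LS174T with ethanol, and its probe was detected on no array of the other lines. By that probe LS174T was at least 14.3-fold higher than HCT116 (adjusted p = 5.77e-15). Another, dimmer probe was detected on 7 arrays of the other lines, and by it LS174T exceeded HCT116 by 1.63. SLC7A5, the large neutral amino acid carrier, was highest in LS174T, at 11.64 ± 0.09 in SW480, 12.74 ± 0.08 in LS174T and 11.06 ± 0.08 in HCT116.

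Ion, nucleoside, choline and metal carriers also set the lines apart. SLC12A2, the sodium-potassium-chloride cotransporter that loads chloride for secretion, stood at 12.50, 12.31 and 12.28 in LS174T with ethanol, against 9.20, 9.26 and 9.11 in HCT116, and at 8.13, 8.22 and 8.27 in SW480. LS174T exceeded HCT116 by 3.17 ± 0.11 (adjusted p = 2.28e-13). SLC29A4, a monoamine carrier of the nucleoside transporter family, stood at 5.26, 5.12 and 4.73 in LS174T, where it was not detected, against 9.83, 9.83 and 9.90 in HCT116, and averaged 7.88 ± 0.15 in SW480. The gap was at least 21.1-fold (adjusted p = 9.55e-15). SLC44A3 was not detected in SW480, at 5.05 ± 0.11, against 10.11 ± 0.16 in LS174T and 9.53 ± 0.15 in HCT116, and was at least 25.9-fold lower in SW480 than in LS174T (adjusted p = 2.08e-16). SLC30A3, a zinc carrier of vesicles, averaged 5.86 ± 0.28 in LS174T, against 9.64 ± 0.07 in HCT116 (difference -3.78 ± 0.22, adjusted p = 2.26e-10). The zinc carrier SLC39A11 averaged 6.77 ± 0.11 in SW480, against 9.71 ± 0.05 in HCT116 (difference -2.94 ± 0.09, adjusted p = 2.97e-14).

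**Figure D4:**
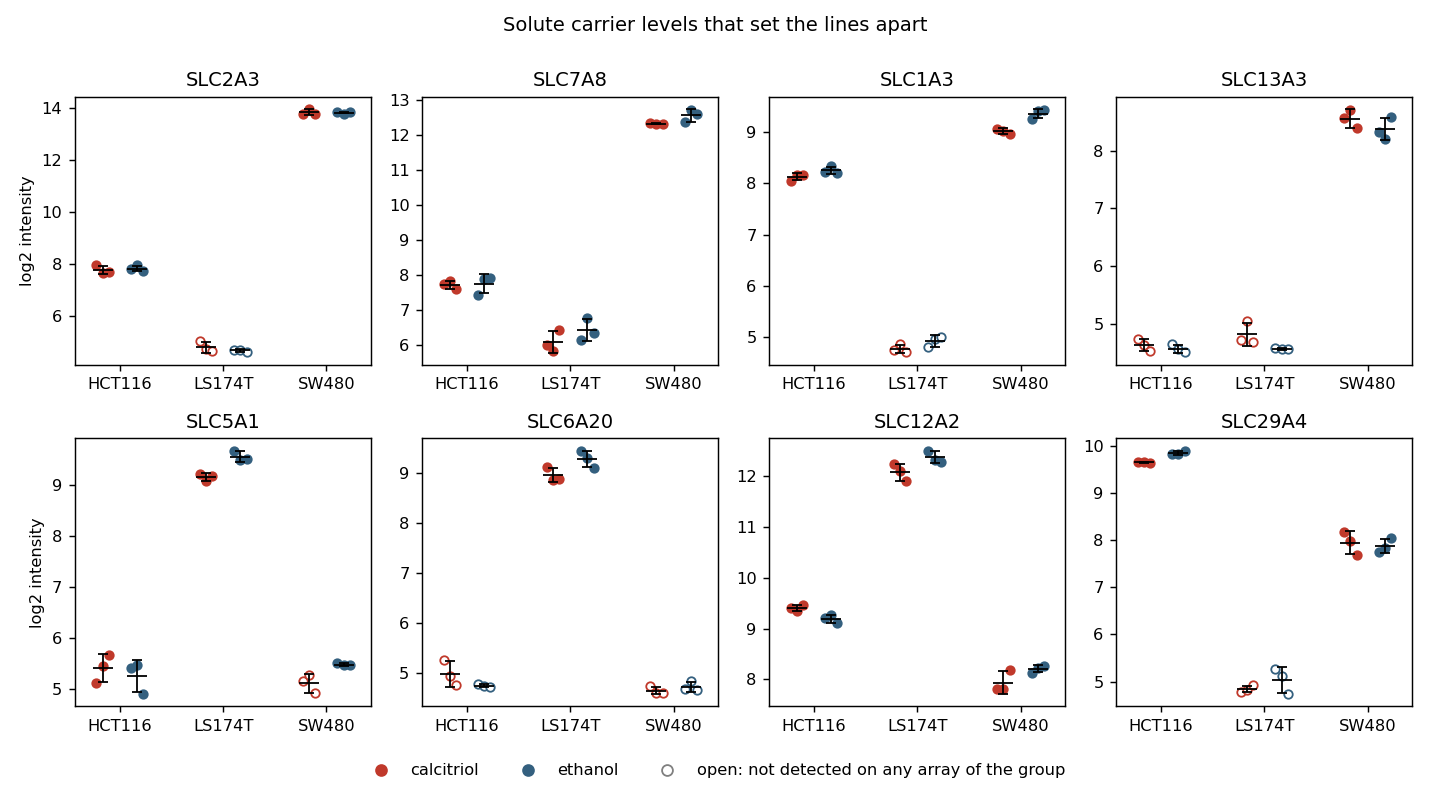
Log2 intensity (y axis) on every array for 8 members that set the lines apart, with calcitriol and ethanol side by side within each line; horizontal marks are means and bars are SD over 3 arrays, and open points mark groups in which no array detected the probe. SLC2A3 in SW480 lies between 13.76 and 13.96, far above its level in the other lines, and SLC5A1, SLC6A20 and SLC12A2 are highest in LS174T.

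Mitochondrial carriers were detected widely, with wide gaps in a few. SLC25A13, the aspartate-glutamate carrier citrin, stood at 10.91 ± 0.06 in SW480, 9.77 ± 0.06 in LS174T and 7.85 ± 0.19 in HCT116, and was 8.36-fold higher in SW480 than in HCT116 (adjusted p = 1.04e-13). SLC25A21, a carrier of oxodicarboxylates, was not detected in SW480, against 8.52 ± 0.10 in LS174T and 7.21 ± 0.08 in HCT116, and was at least 8.57-fold lower in SW480 than in LS174T (adjusted p = 2.05e-14). SLC25A5, an ADP/ATP exchanger, stayed close, at 14.10 ± 0.13 in SW480, 14.16 ± 0.05 in LS174T and 13.93 ± 0.11 in HCT116. Its largest difference between lines was 0.23 (LS174T minus HCT116, adjusted p = 0.0246). Of the carboxylate family, SLC16A9 was at least 9.35-fold lower in LS174T than in HCT116 (adjusted p = 5.04e-14), and SLC16A10 at least 7.19-fold lower (adjusted p = 2.47e-15).

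Some members were detected on every array of a single line by the probe used and on no array elsewhere by any of their probes. HCT116 had 7 such members, or 3.18%, against 1.23% of all genes. LS174T had the cystine-glutamate exchanger SLC7A11, or 0.455%, against 1.26%. SW480 had 6, or 2.73%, against 1.57%. Among those of HCT116 were SLC10A4, at 8.07 ± 0.15 in ethanol and at least 6.12-fold lower in LS174T (adjusted p = 1.52e-13), and SLC7A9, at 6.06 ± 0.14. Among those of SW480 were SLC6A4, at 8.50 ± 0.08, and SLC47A1, an exporter of organic cations, at 6.71 ± 0.12. The count leaves out SLC6A20, SLC2A10, SLC13A3 and SLC43A3, whose probes differed. SLC13A3, a sodium-dicarboxylate cotransporter, stood at 8.37 ± 0.19 in SW480 by the probe used. A second probe for SLC13A3 gave SW480 minus HCT116 as 0.09 and SW480 minus LS174T as 0.16. SLC43A3, a nucleobase carrier, stood at 7.25 ± 0.04 in HCT116 and was below detection elsewhere by the probe used, while other probes detected it on 2 arrays of LS174T and 4 of SW480. SLC43A3, SLC13A3 and SLC47A1 were chosen after their values were seen. Counted over all members, 56 were highest in SW480 and past the threshold against both other lines, or 25.5%, against 21.2% of all genes. The count was 44 for LS174T, or 20% against 18.4%, and 34 for HCT116, or 15.5% against 17.3%.

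**Figure D5:**
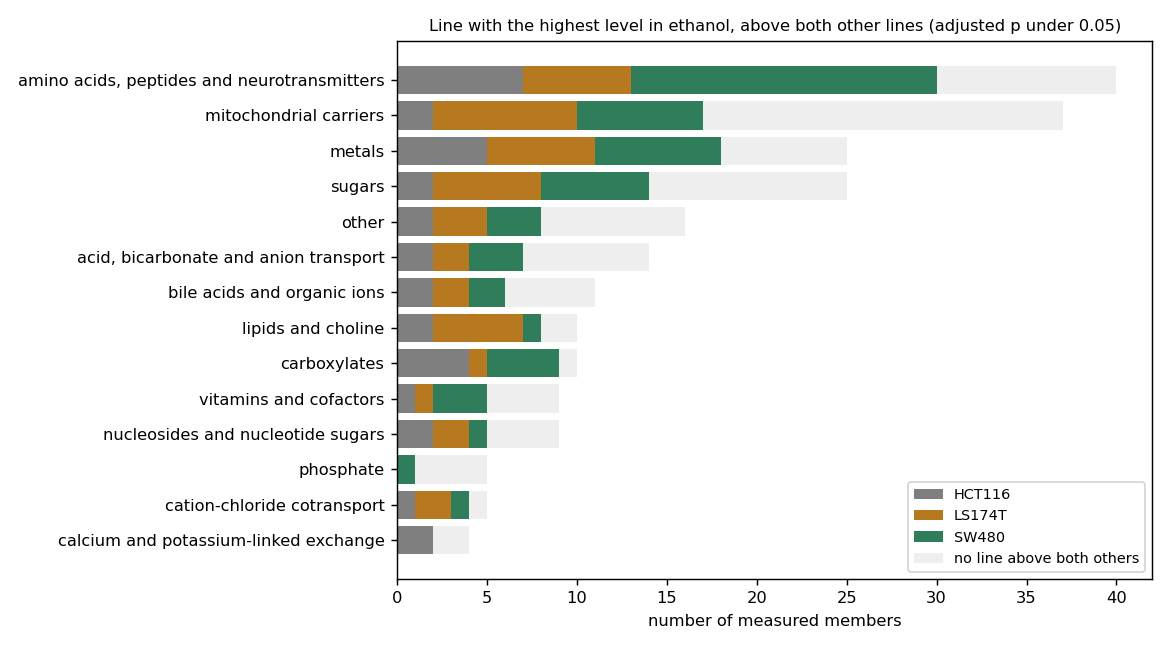
Number of measured members (x axis) in each cargo group (y axis) whose level in ethanol was highest in a given line and past the threshold against both other lines, stacked by line; pale bars are members with no such line. SW480 holds 17 of the 40 amino acid, peptide and neurotransmitter carriers, and LS174T holds 5 of the 10 lipid and choline carriers.

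A list of 41 transporters of intestinal and tumour physiology was also read in full. Of these, 30 were measured, 8 were on the array without passing the filter, among them SLC30A10, SLC26A3, SLC9A3, SLC15A1 and SLC10A2, which no array detected, and 3 were not analysed here because the annotation did not list them. Of the 30, 4 rose and 1 fell in LS174T (SLC34A3, SLC20A1, SLC11A2 and SLC27A2, and SLC3A1), SLC9A2 fell in SW480, and none passed in HCT116. SLC34A3 was measured only through LS174T with calcitriol, the group in which it was high, so the 4 are not read against the 2.81% of all genes. The other members of the list did not pass in any line with calcitriol. SLC7A5 differed by -0.15 in LS174T (adjusted p = 0.322) and its heavy subunit SLC3A2 by -0.23 (adjusted p = 0.307). The folate carrier SLC19A1 differed by 0.37 in LS174T (adjusted p = 0.253), and SLC46A1, the proton-coupled folate carrier, by 0.31 (adjusted p = 0.525). SLC40A1, the iron exporter ferroportin, was detected in HCT116 alone, on 5 of its 6 arrays. The calcium exchanger SLC24A1 differed by -0.38 in LS174T (adjusted p = 0.343), and SLC5A1 by -0.40 ± 0.15 (adjusted p = 0.151) with all calcitriol arrays below all ethanol arrays.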

How the data were processed

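Total RNA of 3 human colorectal cancer lines was labelled and hybridised to Illumina HT-12 arrays, 3 per group. The deposited raw table holds a probe intensity and a detection p-value for each array, per the file headers. The deposited normalized table holds log2 values, and the submitters' processing notes name limma without a version. The log2 levels used here were computed from the deposited intensities in limma 3.58.1 (R 4.3.3) with neqc, which corrects the background from the detection p-values, adds an offset of 16 and quantile-normalizes. They differed from the deposited log2 table by a median of 0.00019456, and by 0.200826 at most. Of 47323 probes, 25586 had a detection p under 0.05 on at least 3 arrays. The 887 rows without an identifier were left out. The platform annotation gave 1 gene symbol for 30113 probes, several for 8 and none for 17202. The symbols of 30074 probes were matched through Entrez identifiers. The brightest probe stood for each gene, and 59 members had several.

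Group means of all 18 arrays were fitted with lmFit and eBayes, with Benjamini-Hochberg adjustment of p-values over 13712 genes. Bounds for undetected groups set the higher of the dimmest detected signal and the probe's own signal, per array, against the bright group's mean. The number of arrays limits the precision. Fits were tested on simulated data. The main fit did not pair samples by replicate number. The correlations computed for same-numbered arrays, which are not correlations of their levels, ran from -0.09 to 0.001. They cannot settle whether these arrays were handled as pairs, and the labels do not say. Members, cargo groups and lists were chosen with earlier results of these data known. Members named in the text were drawn from several lists, and not every gene of these lists is named. One was the largest called changes per line whose arrays do not overlap. Others were the 8 smallest p-values of the F-test and the 6 largest differences in each direction per pair of lines. The rest were the extremes of each cargo group, the genes at the edge of detection and the list of 41 transporters. Among those left unnamed elsewhere are SLC45A1, SLC68A1 and SLC5A10. Alternatives covered background, scaling, filter, moderation, probe choice, replicate block, the deposited table, single lines and leaving out each array.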

Additional observations from a re-analysis of the deposited data

Results flagged for a closer look

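The responses of 21 members to calcitriol differed among the 3 lines in the F-test of limma, which tests the difference itself, and each adjusted p below is from that test. SLC3A1 had 4.03e-05. It was below detection in HCT116 and in LS174T with calcitriol, so no size is given. SLC44A5 had 0.000229, SLC34A3 had 0.002104, SLC25A40 had 0.01653, SLC2A12 had 0.01737 and SLC6A16 had 0.02834, and all of these passed on their own in LS174T. SLC34A3 was tested only because LS174T with calcitriol was above detection. SLC16A5 had 0.003303 and passed in LS174T and SW480, and with the mean of its probes the F-test gave 0.1804. SLC41A2 had 0.0006592, SLC9A2 had 0.007536, SLC38A2 had 0.007832, SLC44A2 had 0.01325, SLC22A23 had 0.01737, SLC16A4 had 0.02352, SLC25A37 had 0.03015 and SLC16A9 had 0.04571, and these passed on their own in SW480. The F-test calls of SLC16A9, SLC25A37, SLC6A16 and SLC16A4 were lost in 17, 7, 5 and 2 of the 18 fits that each left out an array, and that of SLC22A23 with the mean of its probes (0.1178). That of SLC2A12 was lost without background correction and with trend and robust moderation, with an adjusted p of up to 0.1093.

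The remaining members passed no single comparison with ethanol, although their responses differed. SLC46A3 had 0.004684. SLC25A22, a mitochondrial glutamate carrier, had 0.02754, with differences of 0.39 in SW480, 0.02 in LS174T and -0.27 in HCT116. SLC49A4, a lysosomal carrier, had 0.03434, with -0.27 in SW480, 0.14 in LS174T and 0.22 in HCT116. SLC45A4 had 0.03751, with -0.34 in SW480, 0.46 in LS174T and -0.20 in HCT116. SLC67A1 had 0.03941, with -0.42 in SW480, -0.24 in LS174T and 0.38 in HCT116. SLC35A1, which carries CMP-sialic acid into the Golgi, had 0.04135, with -0.08 in SW480, -0.18 in LS174T and 0.25 in HCT116. In the fits without 1 array, the calls of SLC67A1, SLC35A1, SLC45A4, SLC49A4 and SLC25A22 were lost in 14, 13, 10, 9 and 7 of 18. With median scaling SLC25A22 had 0.2638, SLC35A1 0.1376 and SLC25A37 0.422. What sets the lines apart was not tested.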

How the results depend on the processing

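No named member changed direction with calcitriol or between lines under any alternative run. The F-test has no direction, so for it only the loss of calls is counted. With median scaling 9 members passed in LS174T, 6 higher and 3 lower, against 15 as reported, and all 9 were among the 15. In SW480, 1 member passed with only its 6 arrays, against 14. Without background correction 32 members passed the F-test of responses, against 21, and 17 were shared. Leaving out each array in turn gave 10 to 15 members in LS174T, 5 to 14 in SW480, 0 in HCT116, 14 to 22 in the F-test of responses and 182 to 187 among lines in ethanol. The lowest SW480 counts were 5 without SW480 calcitriol 1, 6 without SW480 ethanol 2 and 9 without SW480 calcitriol 2. The replicate block gave 15 members in LS174T, 14 in SW480, 0 in HCT116, 18 in the F-test of responses and 184 among lines, with 13 of the 15 shared in LS174T. With the median raw intensity as a covariate, an alternative added after seeing the data, 12 passed in LS174T, 12 in SW480 and 14 in the F-test. In LS174T 8 of the 15 called members passed under every alternative, in SW480 0 of 14, in the F-test of responses 9 of 21, and all 36 named differences between pairs of lines. The cause of these changes was not tested. The slide as a block was not run, because the columns name no slide. Signals near background limit SLC34A3, SLC6A12, SLC6A16, SLC12A5 and SLC16A9. They also limit the F-tests of SLC44A5 and SLC2A12, not detected in SW480, and of SLC16A4 and SLC3A1, not detected in HCT116.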
